A study of Homo sapiens with 6 samples.

Results

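The RNA levels of 71 histone genes were compared between MDA-MB-231 cells grown on glucose and on fructose. Of these, 57 were replication-dependent genes and 14 were variant genes. They were taken from the array's annotation by symbol (H1, H2A, H2B, H3 and H4 genes, their older HIST, H1F, H2AF and H3F names included), out of 18404 genes that had a probe set of their own. A probe set is the group of probes on the array whose signals are combined into 1 value. Each of the 71 genes had 1 such probe set, and 1 pseudogene of H2B, 1 of H1 and an antisense gene were left out. H3-3A had no probe set of its own and was not analysed here. MDA-MB-231 is an established human line of triple-negative breast cancer.

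Cells of the glucose group were kept in medium with 25 mM glucose and those of the fructose group in medium with 10 mM fructose, in both cases for 25 days. The groups had 3 arrays each, and every array carried total RNA of a batch of cells that was adapted separately. Cells were taken at about 70% confluency, about 24 hours after their last change of medium. The kind of sugar and its concentration differed together and cannot be told apart, and all values come from this single line.

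Histones are the proteins around which DNA is wound. H2A, H2B, H3 and H4 form the core of the nucleosome, and H1 binds the DNA between cores. Replication-dependent histone genes lie in clusters, are transcribed mainly in S phase, when DNA is copied, and give messenger RNAs that end in a stem-loop in place of a poly(A) tail. Variant histone genes lie apart from these clusters, are mostly read throughout the cell cycle, and in most cases give polyadenylated RNA. Replication-dependent core histone genes of a class have closely similar coding sequences, so their probe sets may also take up RNA of related genes. The sources used here do not give how the labelling reaction was primed, and the level read from an RNA without a tail depends on it.

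Many H2A and H2B genes start back to back and share the DNA between their starts. The stretches of 3 such pairs are shown because the pairs differed in their values, which follow further on. They are printed on the plus strand of GRCh38.p14, from the base after the start of the left gene to the base before the start of the right gene, and come from RefSeq's promoters. Capitals mark 3 motifs, read on both strands. The first is TATAAA, the TATA box, which helps to place the start of transcription. The second is CCAAT, a box common to many promoters. The third is the octamer ATTTGCAT, which octamer-binding factors such as POU2F1 recognise. A motif on the minus strand is in capitals as its reverse complement.

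H2AC1-H2BC1 (chr6:25726563-25726776): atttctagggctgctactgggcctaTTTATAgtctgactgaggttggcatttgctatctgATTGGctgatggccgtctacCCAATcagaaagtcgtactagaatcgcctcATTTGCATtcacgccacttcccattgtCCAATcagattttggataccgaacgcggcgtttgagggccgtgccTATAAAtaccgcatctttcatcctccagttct

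H2AC14-H2BC14 (chr6:27814778-27815021): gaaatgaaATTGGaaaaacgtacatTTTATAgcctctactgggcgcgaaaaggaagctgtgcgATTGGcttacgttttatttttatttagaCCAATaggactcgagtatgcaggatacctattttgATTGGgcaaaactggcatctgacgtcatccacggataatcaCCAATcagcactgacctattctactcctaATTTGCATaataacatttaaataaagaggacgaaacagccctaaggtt

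H2AC25-H2BC26 (chr1:228457874-228458102): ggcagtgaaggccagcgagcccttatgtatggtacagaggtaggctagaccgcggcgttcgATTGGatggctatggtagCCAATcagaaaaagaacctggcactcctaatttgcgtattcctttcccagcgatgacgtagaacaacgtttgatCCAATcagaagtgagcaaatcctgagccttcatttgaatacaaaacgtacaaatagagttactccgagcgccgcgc

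The segment between H2AC1 and H2BC1 held 2 TATA boxes, 3 CCAAT and 1 octamer. That between H2AC14 and H2BC14 held 1 TATA box, 5 CCAAT and 1 octamer. The segment of the H2AC25 and H2BC26 pair had 3 CCAAT, and neither of the other letters searched.

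Replication-dependent histone RNAs stood lower on fructose in most cases, by a small amount, and variant RNAs went both ways. Of the 57 replication-dependent genes, 48 (84.2%) had a lower mean on fructose, against 43.8% of all 28230 probe sets tested. Their median difference, fructose minus glucose, was -0.15 on the log2 scale, and that of all probe sets tested was 0.02. Of the 14 variant genes 9 were lower, with a median of -0.04. No test was made of the gap between the kinds of gene.

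None of these differences passed the test of single genes. With limma and Benjamini-Hochberg adjustment over all tested probe sets, 0 of the 71 histone genes had an adjusted p under 0.05, and the smallest was 0.128. Over the whole array 0.00354% of probe sets passed, which is 1 probe set, that of TXNIP, an arrestin-like protein that limits glucose uptake (log2 difference -3.80, limma adjusted p = 4.7e-05). At an unadjusted p under 0.05, 20 histone genes were lower on fructose, 19 of them replication-dependent, where 5.43% of all probe sets were. Higher at that level were 3 histone genes, against 7.65% of all. That count was 0 without fructose replicate 3 and 1 without glucose replicate 1, glucose replicate 2 or fructose replicate 1.

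The calls depended on the setting. When the 14115 probe sets above the median were tested alone, 5 histone genes passed, H2AC1, H2BC1, H4C14, H2AC14 and H2BC14, with limma adjusted p from 0.0304 to 0.0416. Of all probe sets in that fit 2.3% passed, and 1.01% were lower on fructose. With an intensity trend and robust variances those 5 passed together with H1-4 and H4C2 (limma adjusted p from 0.0102 to 0.0437), where 1.68% of all passed and 0.762% were lower. With 16 added to each value before log2, H2AC1, H2BC1, H4C14 and H2AC14 passed (limma adjusted p from 0.0425 to 0.0481), where 0.716% of all passed and 0.333% were lower. All of these histone genes were lower on fructose in these fits.

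The arrays separated mostly in 1 direction. In 25 of the 57 replication-dependent genes (43.9%) every fructose array lay below every glucose array, where 8.81% of all probe sets did. In 0 of them did every fructose array lie above every glucose array, against 11.4% of all. Among the 14 variants, 2 were separated downward and 2 upward. The count of 20 genes at an unadjusted p under 0.05 became 12 without glucose replicate 3. Of the replication-dependent genes 12 were then lower at that level and 44 of 57 had a lower mean. In bulk RNA, fewer cells in S phase and less histone RNA per such cell cannot be told apart.

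**Figure D1:**
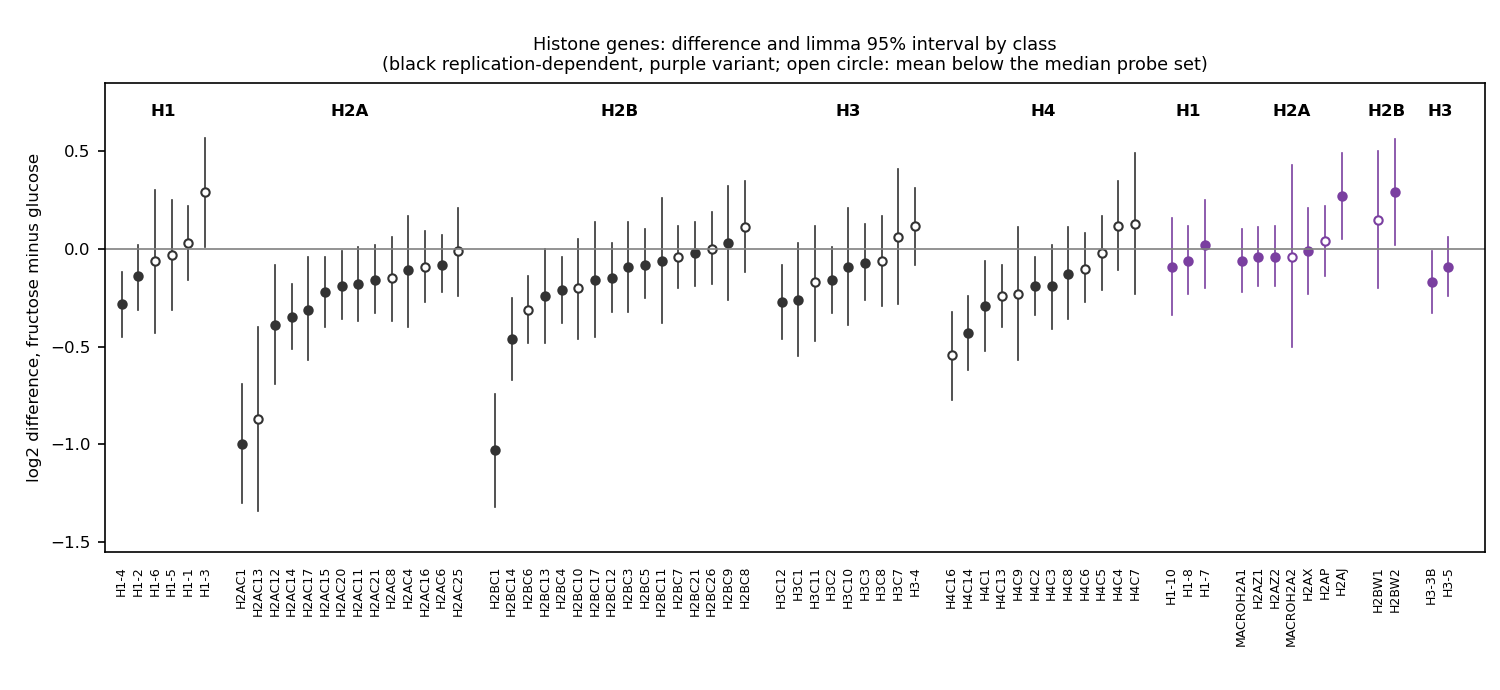
Log2 difference, fructose minus glucose, of each of the 71 histone genes, with limma's 95% interval as a vertical line, grouped by class. Black marks replication-dependent and purple variant genes, open circles have a mean below the median probe set, and the values run from H2BC1 at -1.03 to H1-3 and H2BW2 at 0.29.

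The shift was present on each fructose array. Measured against the mean of the glucose arrays, the median over the 57 replication-dependent genes was -0.177, -0.124 and -0.194 on fructose replicates 1, 2 and 3. On glucose replicates 1, 2 and 3 it was 0.013, -0.069 and 0.063. The fructose arrays thus all lay under the glucose arrays, with fructose replicate 2 and glucose replicate 2 closest to each other. On those fructose arrays 47, 45 and 48 of the 57 genes were below their glucose mean. The variant genes gave 0.047, 0.016 and -0.039 on the fructose arrays and between 0.004 and 0.025 on the glucose arrays, so that these values overlapped.

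By the median, bright replication-dependent genes differed by more than dim ones. Single genes did not all follow this order. Among the bright ones, H2AC1 (mean 80.2 on glucose) stood at -1.0 and H2AC6 (mean 2756) at -0.08. Of the replication-dependent genes, 33 had a mean above the median probe set of the array. Among them 32 were lower on fructose, with a median of -0.19, and 19 (57.6%) had separate groups, against 13.6% of all probe sets that bright. Of the 24 dim genes 16 were lower, with a median of -0.05, and 6 (25.0%) had separate groups, against 4.06% of all dim probe sets. The part of signal strength in the size of the difference was not tested.

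**Figure D2:**
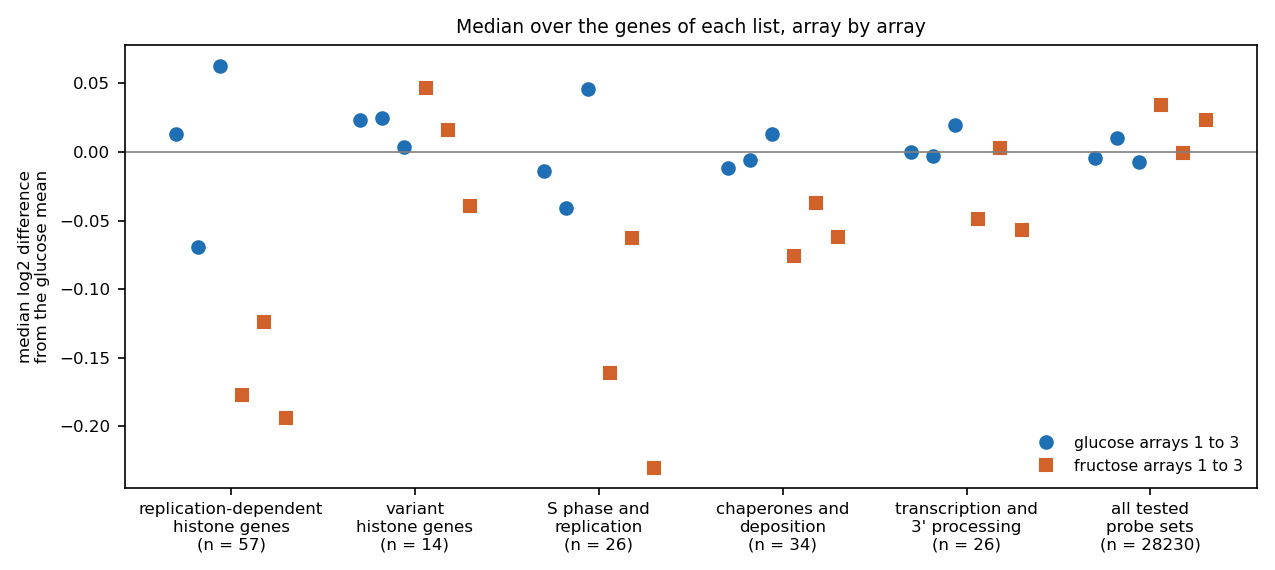
Median log2 difference from the glucose mean over the genes of each list, with 1 symbol per array (blue circles glucose, orange squares fructose, replicates 1 to 3 from the left). The fructose arrays lie between -0.194 and -0.124 for replication-dependent histone genes and between -0.039 and 0.047 for variant genes.

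All 14 replication-dependent H2A genes had a lower mean on fructose. H2A forms dimers with H2B at the edge of the nucleosome core. The median difference of the class was -0.18, in 9 of 14 genes the groups were separate, where 8.81% of all probe sets were, and 7 were lower at an unadjusted p under 0.05, where 5.43% of all were. Without glucose replicate 3 that count of 7 was 4. The median lay between -0.236, without glucose replicate 2, and -0.166, without glucose replicate 3.

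H2AC1 encodes an H2A known chiefly from testis. Its intensity was 69.6, 75.8 and 95.1 on the glucose arrays and 41.9, 35.9 and 42.2 on the fructose arrays. The groups were far apart, with fructose at 50.2% of the glucose level (log2 difference -1.0, SE 0.130, limma adjusted p = 0.128). The difference of H2AC1 was -0.77 when 16 was added to every value before log2. H2AC14, a clustered gene in the third block described further on, read 129, 126 and 132 on glucose and 106, 102 and 95.7 on fructose. These groups were narrow and separate, with a log2 difference of -0.35 (SE 0.070, limma adjusted p = 0.164). For H2AC12 the difference was -0.39 (SE 0.129, limma adjusted p = 0.291). H2AC13 was dim, at 3.43 ± 0.462 on fructose and 6.37 ± 1.6 on glucose (SD, n = 3). Its difference of -0.87 (limma adjusted p = 0.188) was reduced to -0.20 when 16 was added to every value before log2. The other 10 genes ranged from -0.31 for H2AC17 to -0.01 for H2AC25.

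Replication-dependent H2B genes were lower in 13 of 16 cases (81.2%), with a median of -0.12, and the groups were separate in 6 (37.5%). For all tested probe sets 43.8% were lower and 8.81% separate downward. Without fructose replicate 1 the median of the class was -0.07. H2BC1, which encodes the testis form of H2B, had the lowest ratio of all members. On glucose it read 76.6, 62.9 and 79.8, and on fructose 32.5, 40.7 and 34.1. Fructose stood at 49.0% of the glucose level, with no overlap (log2 difference -1.03, SE 0.124, limma adjusted p = 0.128). The difference of H2BC1 was -0.78 with 16 added before log2.

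H2BC14 is the clustered partner of H2AC14. Its arrays gave 320.1, 320.0 and 363 on glucose and 245, 223 and 261 on fructose, again separate (log2 difference -0.46, SE 0.090, limma adjusted p = 0.154). H2BC4 read 105, 94.1 and 101 on glucose and 88.4, 85.2 and 85.6 on fructose. The fructose values of H2BC4 lay close together and below all glucose values (log2 difference -0.21, SE 0.071, limma adjusted p = 0.298). H2BC6 was dim, with 11.7, 11.6 and 12.5 against 9.40, 10.2 and 9.24 and a difference of -0.31 (limma adjusted p = 0.198), or -0.12 with 16 added before log2. The other 12 genes ranged from -0.24 for H2BC13 to 0.11 for the dim H2BC8.

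H4 pairs with H3 at the centre of the nucleosome. Its class had 10 of 12 genes lower, a median of -0.19 and 6 genes with separate groups. Among all tested probe sets, 43.8% were lower and 8.81% were separate downward. H4C14, of the second cluster, read 449, 417 and 491 on glucose and 333, 342 and 329.6 on fructose. Its fructose arrays hardly varied and stood at 74.2% of the glucose level (log2 difference -0.43, SE 0.080, limma adjusted p = 0.148). H4C16, the H4 gene that lies apart from the clusters, was dim, with 18.4, 16.2 and 19.8 on glucose and 12.8, 12.9 and 11.6 on fructose. The groups of H4C16 were separate (log2 difference -0.54, SE 0.096, limma adjusted p = 0.137), and the difference was -0.26 with 16 added. H4C13, also dim, differed by -0.24 (limma adjusted p = 0.236), or -0.09 with 16 added. For H4C1 the difference was -0.29 (limma adjusted p = 0.292), and its highest fructose array, 97.4, almost met its lowest glucose array, 98.2. The other 8 ranged from -0.23 for H4C9 to 0.13 for H4C7, both dim.

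Replication-dependent H3 genes were lower in 7 of 9 cases (77.8%, against 43.8% of all tested probe sets), with a median of -0.09. Leaving out glucose replicate 3 took it to -0.02, leaving out fructose replicate 1 to -0.16, and leaving out fructose replicate 3 to -0.06. H3C12 read 1061, 975 and 1102 on glucose and 866, 924 and 815 on fructose, with separate groups (log2 difference -0.27, SE 0.082, limma adjusted p = 0.260). H3C2 was separate too, by less, with 2024, 2025 and 2057 against 1910, 1867 and 1690 (log2 difference -0.16, limma adjusted p = 0.407). In H3C1 the groups overlapped, since fructose replicate 2, at 120.1, was above glucose replicate 2, at 114 (log2 difference -0.26, limma adjusted p = 0.424, or -0.17 without fructose replicate 3). H3-4, the testis H3, was dim and stood at 0.12 (limma adjusted p = 0.598), the highest difference of this class. The 5 others ranged from -0.17 for H3C11 to 0.06 for H3C7, both dim.

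The 6 replication-dependent linker histones split by brightness. H1-4 and H1-2 were bright and lower with separate groups, and the 4 others were dim, with overlapping groups. H1-4 read 2525, 2591 and 2750 on glucose and 2250, 2125 and 2095 on fructose (log2 difference -0.28, SE 0.070, limma adjusted p = 0.207). H1-2 read 2527, 2493 and 2531 on glucose and 2369, 2347 and 2134 on fructose, a smaller gap (log2 difference -0.14, limma adjusted p = 0.442, or -0.09 without fructose replicate 3). H1-3 stood at 0.29 (limma adjusted p = 0.364), from 9.08 ± 0.641 on glucose and 11.2 ± 1.6 on fructose (SD, n = 3). It was at 0.19 without fructose replicate 1 and at 0.11 with 16 added. H1-6, the testis linker histone, stood at -0.06 (limma adjusted p = 0.900), H1-1 at 0.03 and H1-5 at -0.03. The class median, -0.05, rests on few genes. It was 0.03 without fructose replicate 2, 0.01 without fructose replicate 3, -0.16 without fructose replicate 1, and -0.025 without glucose replicate 1 or without glucose replicate 2.

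**Figure D3:**
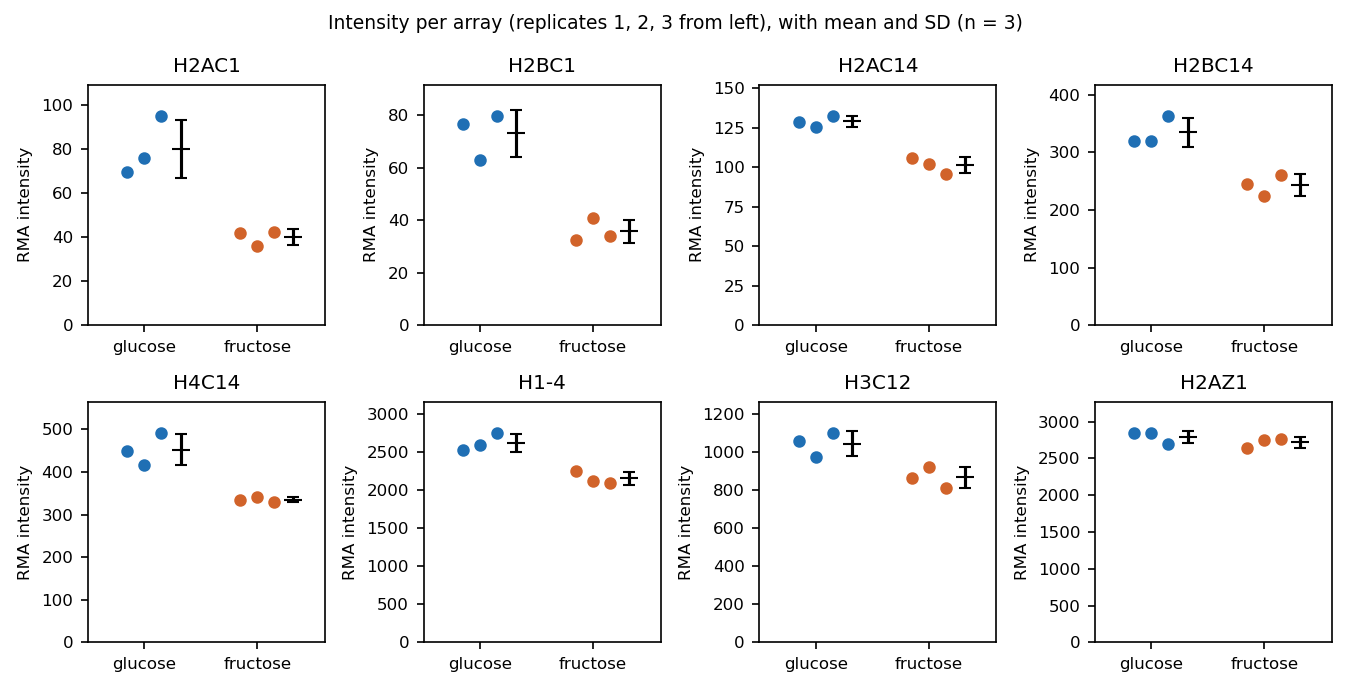
Deposited intensity on each array (blue glucose, orange fructose, replicates 1 to 3 from the left) of 8 histone genes, with mean and SD (n = 3) at the right of each group and axes from 0. In the 7 replication-dependent genes every fructose array lies below every glucose array, and in the variant H2AZ1 the groups overlap.

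Several bright variant genes had intervals around 0. H2AZ1, which replaces H2A at promoters, read 2843, 2841 and 2697 on glucose and 2636, 2755 and 2762 on fructose. Its groups overlapped, and the 95% interval of the log2 difference ran from -0.19 to 0.11 around -0.04 (limma adjusted p = 0.837). For its relative H2AZ2 the interval was -0.19 to 0.12. H2AX, which is phosphorylated at DNA breaks, differed by -0.01, with an interval from -0.23 to 0.21. MACROH2A1, an H2A with a large extra domain, differed by -0.06, from -0.22 to 0.10. Each of these intervals also holds the replication-dependent median of -0.15.

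H3-3B encodes H3.3, the H3 that is placed outside S phase. It read 852, 891 and 885 on glucose and 803, 791 and 737 on fructose, lower with separate groups (log2 difference -0.17, SE 0.068, limma adjusted p = 0.354). H3-5, a close relative of H3-3B that may share its signal, was lower by less, also with separate groups (log2 difference -0.09, limma adjusted p = 0.592). H2AJ, an H2A variant known from senescent cells, stood higher. Its intensities of 49.5, 49.9 and 53.5 on glucose and 59.7, 56.3 and 69.3 on fructose were separate (log2 difference 0.27, SE 0.094, limma adjusted p = 0.303). H2BW2, an H2B gene on the X chromosome, was the other variant with separate groups upward, at 56.1, 55.1 and 45.4 against 62.7, 58.1 and 70.5 (log2 difference 0.29, limma adjusted p = 0.350, or 0.19 without glucose replicate 3). Its neighbour in kind H2BW1 was dim and stood at 0.15 (limma adjusted p = 0.714). The linker variants H1-10, H1-8 and H1-7 differed by -0.09, -0.06 and 0.02, each with overlapping groups (limma adjusted p = 0.776, 0.792 and 0.944). With each array left out H1-10 ranged from -0.17 to -0.01 and H1-8 from -0.10 to -0.005. The dim MACROH2A2 and H2AP stood at -0.04 and 0.04. The median of the 14 variants was -0.02 without fructose replicate 3 or glucose replicate 1, and -0.015 without fructose replicate 2.

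By position, 49 of the 57 replication-dependent genes belong to cluster 1 on chromosome 6, 4 to cluster 2 and 3 to cluster 3, both on chromosome 1, and H4C16 lies apart on chromosome 12. In cluster 1, 42 of 49 genes (85.7%) were lower, with a median of -0.15, and 21 (42.9%) had separate groups. Of all tested probe sets 43.8% were lower and 8.81% were separate downward. In cluster 2 all 4 were lower (median -0.17) and 3 were separate. Of the 3 genes of cluster 3, H2AC25, H2BC26 and H3-4, 1 was lower and 0 were separate, with a median of 0.00488. That median was -0.03 without glucose replicate 2, where 2 of 3 were lower, and 0.05 without fructose replicate 2. With glucose replicate 1 or 3 left out 0 of the 3 were lower. All 3 of those were dim, so they are compared at a lower signal than most of the others. Of all dim probe sets 4.06% were separate downward, so 0 of 3 lies near that share.

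Cluster 1 falls into 3 blocks where gaps of more than 300 kilobases divide it. Over all tested probe sets 43.8% were lower and 8.81% were separate downward. The first block had 31 genes, of which 24 (77.4%) were lower, with a median of -0.10, and 12 (38.7%) had separate groups. All 5 genes of the second block were lower, with a median of -0.18, and 2 (40.0%) had separate groups. All 13 genes of the third block were lower, with a median of -0.24, and 7 (53.8%) had separate groups. H2AC14 and H2BC14 are in the third block and H2AC1 and H2BC1 in the first. On bright probe sets alone the medians of the 3 blocks were -0.161 (17 genes), -0.163 (4 genes) and -0.255 (8 genes). The first 2 blocks were thus alike there. The difference between blocks was not tested.

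Among the H2A and H2B genes, 9 pairs start back to back, 215 to 248 bases apart, at most 500 bases being allowed. Of single replication-dependent genes, 14 of 14 H2A and 13 of 16 H2B genes were lower, against 43.8% of all tested probe sets. Separate downward were 8.81% of all. The pairs were not tested against the shares of their classes. In 7 pairs both genes were lower, and in 3 pairs both had separate groups. The last were the H2AC1 and H2BC1 pair, at -1.0 and -1.03, the H2AC14 and H2BC14 pair, at -0.35 and -0.46, and H2AC6 and H2BC4, at -0.08 and -0.21. H2AC13 and H2BC13 differed from each other, at -0.87 and -0.24, with H2AC13 dim. The H2AC25 and H2BC26 pair of cluster 3, whose segment lacks TATAAA and the octamer, stood at -0.01 and 0.00. Both of its genes were dim. Whether the letters and the values of the pairs go together was not tested. H2BC8 and H2AC8, with TATAAA and the octamer in both promoters, stood at 0.11 and -0.15 with overlapping groups. H2BC13 and H2AC13 have TATAAA and lack the octamer in both promoters.

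**Figure D4:**
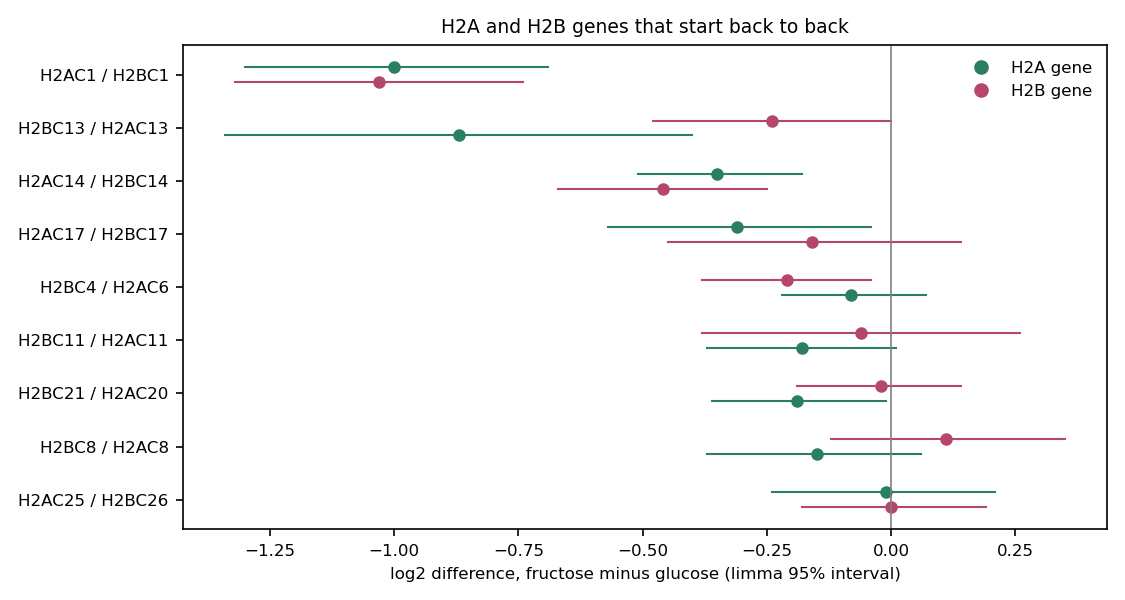
Log2 difference, fructose minus glucose, with limma's 95% interval for the H2A (green) and H2B (red) gene of each of 9 pairs that start back to back. In the pairs at the top and at the bottom both genes lie near each other, H2AC1 and H2BC1 at -1.0 and -1.03 and H2AC25 and H2BC26 at -0.01 and 0.00.

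Promoter letters were read for 65 of the 71 genes in 300 bases, 250 before the start and 50 after it, on both strands, and the motifs may overlap. The octamer ATTTGCAT was in 23 of 52 replication-dependent promoters (44.2%), against 1.8% of 27305 promoters. It was in 13 of 16 H2B and 10 of 13 H2A promoters and in 0 of those of H1, H3 and H4. TATAAA was in 35 of 52 (67.3%), against 12% of all, and CCAAT in 45 of 52 (86.5%), against 35.7%. Neighbouring genes that start back to back share part of these windows, so they are not separate observations. H2B genes with the octamer had a median difference of -0.15 (13 genes) and those without it -0.08 (3 genes). For H2A genes it was -0.17 with the octamer (10 genes) and -0.22 without (3 genes). By TATAAA, H2B genes had -0.16 with it (12 genes) and -0.02 without (4 genes). H2A genes had -0.18 with TATAAA (10 genes) and -0.09 without (3 genes). None of these contrasts was tested. H4C14, among the lowest of its class, held none of the 3 motifs in this window.

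Genes that make, carry and place histones, and genes of S phase, were read from 3 lists, which share MCM2 between the last 2. With limma 0 genes of any list passed the adjusted test. For transcription and 3' processing of histone RNA, 26 of 27 were measured. All 26 were bright, and 16 (61.5%) were lower, against 46.9% of all bright probe sets, with a median of -0.04. At an unadjusted p under 0.05, 0 were lower and 0 higher, against 7.72% and 9.71% of all bright probe sets. SLBP, which binds the stem-loop at the end of the histone RNA, read 352, 349 and 324 on glucose and 314, 329 and 293 on fructose. The groups of SLBP overlapped (log2 difference -0.13, limma adjusted p = 0.508). NPAT, the activator of histone transcription at histone locus bodies, differed by -0.04 (limma adjusted p = 0.865), and its partner CASP8AP2 by -0.22 (limma adjusted p = 0.592). The difference of CASP8AP2 was -0.07 without fructose replicate 3 and -0.12 without glucose replicate 2. HINFP, which drives H4 transcription, stood at 0.23 (limma adjusted p = 0.394), or 0.15 without glucose replicate 1. CPSF3, the nuclease that cuts histone RNA, stood at -0.19, the cap-binding NCBP1 at -0.14 and UPF1, needed to degrade histone RNA, at 0.20, with limma adjusted p = 0.396, 0.423 and 0.463. CPSF3 was at -0.12 without fructose replicate 3, and UPF1 at 0.12 without fructose replicate 2.

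Of the histone chaperones and deposition factors, 34 of 36 were measured. The median was -0.05, with 22 (64.7%) lower, against 46.9% of all bright probe sets. At an unadjusted p under 0.05, 7 were lower (20.6%) and 2 higher (5.88%), and 13 had separate groups downward (38.2%) and 6 upward (17.6%). All 34 were bright, and of all bright probe sets 7.72% were lower and 9.71% higher at that level, with 13.6% separate downward and 15.1% upward. The upward shares thus lay near those of all bright probe sets. The count of 7 was 3 without glucose replicate 2 or 3, or without fructose replicate 1 or 3. The count of 2 was 0 without glucose replicate 1, or without fructose replicate 1 or 3, and 1 without glucose replicate 2 or fructose replicate 2. HAT1, which acetylates new H4, read 425, 432 and 429 on glucose and 328, 361 and 324 on fructose. Its fructose arrays were all well below glucose (log2 difference -0.35, SE 0.071, limma adjusted p = 0.166). ANP32E, which removes H2A.Z from chromatin, read 1187, 1106 and 1140.0 on glucose and 911, 924 and 931 on fructose, again apart (log2 difference -0.31, SE 0.064, limma adjusted p = 0.168). NASP, a carrier of H3 and H4, stood at -0.21 (limma adjusted p = 0.361), and RBBP4, a subunit of CAF-1, at -0.24 (limma adjusted p = 0.336). UBN2, of the HIRA complex that places H3.3, stood at 0.27 with separate groups (limma adjusted p = 0.290). ASF1B differed by -0.13 and CHAF1A, the large subunit of CAF-1, by -0.03 (limma adjusted p = 0.637 and 0.881). ASF1B was at -0.055 without fructose replicate 1 and at -0.22 without fructose replicate 2, and the sign of CHAF1A turned without glucose replicate 2 (0.001).

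Most genes of S phase stood lower on fructose. Of 27 genes 26 were measured, all above the median probe set, and 24 (92.3%) were lower, with a median of -0.14. Of all probe sets that bright 46.9% were lower. The bright replication-dependent histone genes had a median of -0.19, and the gap between these medians was not tested. At an unadjusted p under 0.05, 8 of the S phase genes were lower (30.8%), where 7.72% of all bright probe sets were. This count was 2 without glucose replicate 3 or fructose replicate 3, 3 without fructose replicate 1, and 5 without glucose replicate 1 or 2. On the fructose arrays the median of this list, against the glucose mean, was -0.161, -0.063 and -0.230, and on the glucose arrays -0.014, -0.041 and 0.046. Fructose replicate 2 was nearest to glucose here, as it was for the replication-dependent histone genes. PCNA, which tethers DNA polymerases to their template, read 597, 580 and 609 on glucose and 481, 501 and 462 on fructose (log2 difference -0.31, SE 0.067, limma adjusted p = 0.175). Its groups were separate, as were those of GINS1 (-0.32), MCM3 (-0.30) and CDC45 (-0.21), parts of the replicative helicase, with limma adjusted p = 0.189, 0.296 and 0.298. The part of the S phase genes in the difference of the histone genes was not tested.

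A further 23 probe sets list several symbols with a histone symbol among them, and no gene is named from these. Of all 23, 15 (65.2%) were lower on fructose, with a median of -0.09, and 11 (47.8%) had separate groups downward. Over all tested probe sets these shares were 43.8% and 8.81%. Of the probe sets that list histone genes alone, 10 distinct combinations remained after the brightest of each was kept. In 7 of them fructose was lower, with a median of -0.15, and in 5 the groups were separate downward.

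Of the whole series, array medians ran from 31.5 to 33.5 and single intensities from 2.15 to 9287. On the first principal component, which held 28.8% of the variance, fructose replicate 2 lay nearest to the glucose arrays. Of 8 markers of MDA-MB-231 and like mesenchymal cells, 6 were above the median probe set, VIM, CD44 and EGFR among them. Of 8 luminal markers 3 were above it (GATA3, KRT18 and EPCAM), and ESR1, PGR and CDH1 were below. Of 4 measured leukocyte markers 0 were above it, and of 5 fibroblast markers 1 (COL1A1). None of the markers passed the adjusted test with limma. At an unadjusted p under 0.05, 1 of the 25 markers was higher (EGFR, 0.21), where 7.65% of all probe sets were. At that level 2 were lower (ERBB3, -0.19, and EPCAM, -0.47), where 5.43% of all were, and these 3 genes were named after their values were seen.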

How the data were processed

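RNA of 6 cultures was labelled with biotin and hybridised to 1 array each. The deposited table gives 1 intensity per probe set and array, made by the authors with RMA per the submitters' processing notes, which corrects background, normalizes between arrays and summarises probes. The sources used here name no version and no build. Since the values ran up to 9287 and none was at or below 0, they were treated as linear, and log2 was taken with no pseudocount. The scale of the deposited intensities is thus inferred.

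The table had 32321 rows. Of these, 4091 with identifiers below the lowest annotated one were taken for controls, a reading of the numbering, and left out. Of the 28230 tested, 19158 had 1 symbol, 1388 several and 7684 none here. Symbols came from the platform annotation (current for all 71 genes). Where a gene had several probe sets the brightest was used.

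Groups were compared with limma 3.58.1 in R 4.3.3 (lmFit, eBayes, two-sided, no covariate, Benjamini-Hochberg, threshold 0.05), checked on simulated data first. Fructose as a percent of glucose is from log2 means. Groups are called separate where all 3 arrays of a group lie beyond all 3 of the other. Lists and medians got no test. Array data have no read depth, and 3 arrays a group limit precision.

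Named genes are the 4 of smallest p in each class and kind, the 4 of smallest p in each supply list, and H1-2, H1-10, H2AX, H2AZ1, H2AZ2, H2BC4, H3-3B, MACROH2A1, SLBP, NPAT, CASP8AP2, NASP, ASF1B, CHAF1A and PCNA. Ends of ranges, pairs by position and whole-array or marker genes were named besides. Members, lists and settings were chosen with earlier results of these data known. RefSeq's promoter table (GRCh38.p14) gave 1 promoter a gene. As alternatives, a block for the replicate number, the omission of each array and a test without moderation were run. Values were also quantile-normalized a further time, centred on each array's median, or raised by 16 before log2. Further fits used bright probe sets alone, array weights, variances with a robust intensity trend, averaged probe sets, and the low identifiers kept.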

Additional observations from a re-analysis of the deposited data

How the results depend on the processing

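With limma, 0 histone genes and 0 supply genes passed under 13 of the 16 other settings that were run for both. The exceptions were bright probe sets alone (5 histone genes, H2AC1, H2BC1, H4C14, H2AC14 and H2BC14, and 3 supply genes, where 2.3% of all passed), an intensity trend with robust variances (7, the same 5 with H1-4 and H4C2, and 4, where 1.68% passed) and 16 added before log2 (4, H2AC1, H2BC1, H4C14 and H2AC14, and 3, where 0.716% passed). The adjusted p of H2BC1 was 0.0304, 0.0102 and 0.0425 there. All of those histone genes were lower on fructose, and the supply genes were HAT1, ANP32E, PCNA and, with the trend, GINS1. The cause was not tested. Leaving out each array gave 0 and 0 calls, and replication-dependent medians from -0.174 to -0.117 and variant medians from -0.051 to -0.015.

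Class medians moved beyond the spread for H2A (-0.236 to -0.166 with each array left out), H1 on bright probe sets alone (-0.212, 2 genes) and H4 with 16 added (-0.13). The cause was not tested. Single genes near 0 changed sign. With each array left out H1-6 ran from -0.203 to 0.008, H2AX from -0.073 to 0.057, CHAF1A from -0.072 to 0.001, H1-7 from -0.068 to 0.092, H2BW1 from -0.014 to 0.262 and NPAT from -0.068 to 0.005, and H1-7 was -0.002 after centring on the median. Centring made the share of all probe sets that were lower 51.3%, and 49 of 57 replication-dependent genes were then lower.

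Replicate numbers did not pair the samples, as same-numbered deviations correlated at -0.0255, -0.0207 and -0.0538. With the replicate block 0 histone genes passed, 15 in place of 20 were lower at an unadjusted p under 0.05, and the replication-dependent median was -0.153.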
